A study of Mus musculus with 8 samples.

Results

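The collagen chain family comprised every gene of the deposited expression table whose symbol has the form Col, a number, the letter a and a number, which gave 44 of 22173 genes. Each chain was placed in a structural class from textbook knowledge. There were 11 fibrillar chains, 6 basement membrane chains, 9 FACIT chains (fibril-associated collagens with interrupted triple helices), 3 network-forming chains, 6 beaded filament chains, 1 anchoring fibril chain, 2 multiplexins, 4 transmembrane chains and 2 others, Col26a1 and Col28a1. The symbols and NCBI Gene numbers of all 44 were found in RefSeq's mouse annotation (GRCm38.p6).

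The series compared heart RNA of C57BL/6J mice with the left anterior descending coronary artery tied off, an operation that infarcts the left ventricular wall. Of 8 libraries, 4 were labelled vehicle and 4 came from mice that received DAPA, the usual short form of dapagliflozin, an inhibitor of the renal glucose transporter SGLT2, at 1 mg/kg per day for 4 weeks following the operation. Both groups therefore shared the strain and the ligation, and every difference below is DAPA against vehicle among ligated hearts. The labels give no sex, age or heart region, no dose or duration for the vehicle, and do not say whether a library came from 1 animal. The p-values thus measure the spread between these libraries, which may be technical.

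Collagens are trimers of alpha chains wound into a triple helix, secreted as procollagens, trimmed by proteases and crosslinked outside the cell. Types I and III form the fibrils that bear load in the heart and fill the scar after an infarct, with fibroblasts as their main source. Type IV builds the sheet-like network of basement membranes around cardiomyocytes and vessels, type VI forms beaded microfibrils around cells, and the FACITs decorate the surface of fibrils.

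Levels are in FPKM, a fragment number corrected for transcript length and for the depth of the library, so that they may be compared between chains. The reads behind them numbered 24969690 to 26801254 per library, and 1 read in a transcript of 1 kilobase was worth 0.0373 to 0.04 FPKM. Of 7 general fibroblast markers, 1 was lower (Pi16) and 2 were higher (Tcf21 and Gsn), and their summed FPKM ran from 2462 to 2511 with vehicle and from 2679 to 2859 with DAPA. Gsn, at means of 1090.1 and 1325 FPKM, made up most of that difference, so the sums do not describe the list. The median log2 change of the 7 was 0.04. Of 5 tested markers of activated fibroblasts, Postn and Cthrc1 were lower, as the collagens were, and Tagln higher, with sums of 556 to 576 FPKM with vehicle and 482 to 519 with DAPA. Postn, at means of 381 and 314 FPKM, made up most of the fall of these sums. Of 6 tested markers of matrifibrocytes and cartilage-like cells, Cilp2 and Fmod were lower and Sox9 higher, with overlapping sums of 236 to 274 and 215 to 246. Atrial cardiomyocyte markers, all 5 higher, summed to 8053 to 8994 with vehicle and 12752 to 13449 with DAPA. Nppa made up most of these sums, which therefore understate the change of the list. The other atrial markers were weak in every vehicle library and far higher in every DAPA library. The median log2 change of the 5 was 5.01. Adipocyte markers, all 5 tested lower, summed to 219.9 to 309 with vehicle and 31.8 to 61 with DAPA. The groups did not overlap on the atrial or the adipocyte list, so tissue composition and treatment cannot be told apart in these samples. In bulk RNA, fewer cells of a type and less RNA per cell cannot be told apart either.

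Collagen transcripts were lower with DAPA across most structural classes, and the abundant chains accounted for this. Of the 27 chains that reached a mean of 1 FPKM in a group and entered the test, 15 (55.6%) were lower and 2 (7.41%) higher at an adjusted p below 0.05 (limma on log2(FPKM + 1), Benjamini-Hochberg over 11496 genes). Among all genes tested, 18.4% were called, 8.75% lower and 9.62% higher. The median log2 change of the tested chains was -0.18, against 0.0085 over all genes. The 15 chains that fell did so by 9.85% to 28% in mean FPKM, with a median of 17.5%, and in each of them the lowest vehicle library lay above the highest DAPA library. Both chains that rose, Col23a1 and Col28a1, passed the filter through the DAPA group alone, and 25 chains passed it in both groups.

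**Figure D1:**
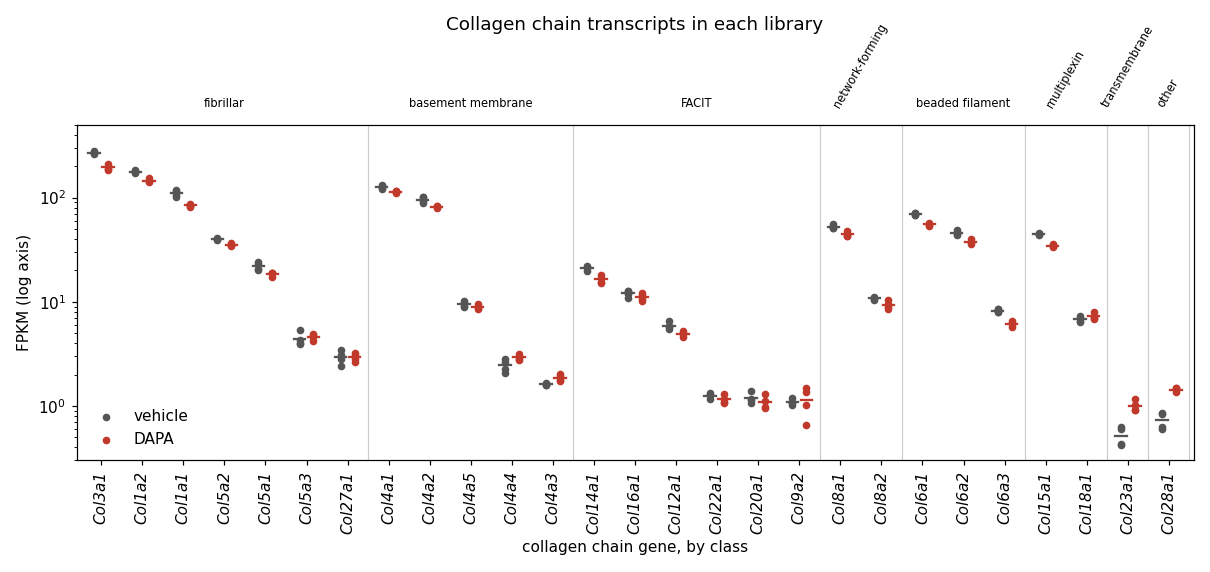
FPKM (log axis) of the 27 tested collagen chains, grouped by class. Each point is 1 library (4 vehicle in grey, 4 DAPA in red) and each bar is a group mean. The DAPA points of Col3a1, Col1a1, Col6a1 and Col15a1 lie wholly below the vehicle points, and those of Col23a1 and Col28a1 wholly above.

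Promoters of 4 chains that passed the test are shown, Col3a1 and Col1a2 as the most abundant chains that fell, and Col28a1 and Col23a1 as the chains that rose. Each is the RefSeq sequence of GRCm38.p6 over the 250 bases before the annotated start, 5′ to 3′ on the strand of the gene. Col3a1 lies at chr1:45311288-45311537 (plus strand), Col1a2 at chr6:4505368-4505617 (plus strand), Col28a1 at chr6:8192618-8192867 (minus strand) and Col23a1 at chr11:51289670-51289919 (plus strand). Capitals mark 3 motifs, each searched on both strands. The TATA box was searched as TATAAA (read from the other strand, TTTATA). The CCAAT box was searched as CCAAT (read from the other strand, ATTGG). The GC box was searched as GGGCGG (read from the other strand, CCGCCC), and neighbouring GC boxes may overlap.
Col3a1: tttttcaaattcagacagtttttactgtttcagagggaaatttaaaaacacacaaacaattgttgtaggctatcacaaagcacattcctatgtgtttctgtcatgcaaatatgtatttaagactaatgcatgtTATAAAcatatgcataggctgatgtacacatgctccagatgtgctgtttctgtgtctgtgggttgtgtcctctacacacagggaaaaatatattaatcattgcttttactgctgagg
Col1a2: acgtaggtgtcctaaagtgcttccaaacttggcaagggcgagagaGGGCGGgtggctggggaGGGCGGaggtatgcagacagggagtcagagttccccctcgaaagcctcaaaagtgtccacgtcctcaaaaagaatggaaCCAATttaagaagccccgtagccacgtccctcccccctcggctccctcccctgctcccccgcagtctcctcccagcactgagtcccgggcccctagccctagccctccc
Col28a1: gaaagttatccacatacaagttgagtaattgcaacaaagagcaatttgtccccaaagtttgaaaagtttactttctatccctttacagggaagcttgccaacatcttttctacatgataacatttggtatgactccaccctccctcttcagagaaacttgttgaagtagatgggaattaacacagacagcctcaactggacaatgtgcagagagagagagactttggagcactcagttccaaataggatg
Col23a1: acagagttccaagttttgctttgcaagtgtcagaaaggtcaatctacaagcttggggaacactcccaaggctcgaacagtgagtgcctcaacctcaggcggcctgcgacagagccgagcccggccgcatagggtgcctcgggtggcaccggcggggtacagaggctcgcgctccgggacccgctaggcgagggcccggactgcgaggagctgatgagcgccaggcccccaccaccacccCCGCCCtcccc
In these windows Col3a1 held TATAAA 117 to 112 bases before its start. Col1a2 held GC boxes at 205 to 200 and 188 to 183 bases, and CCAAT at 109 to 105 bases. Col23a1 held a GC box on the other strand at 11 to 6 bases, and the Col28a1 window held none of the letters searched. A promoter was available for 35 of the 44 chains, among them 11 of those that fell and both that rose. A CCAAT box was present in 12 of the 35 (34.3%) and in 34.5% of 27025 promoters of the same length, and a TATA box in 5 (14.3%) and in 13% of all. GC boxes were present in 21 (60%) and in 32.9% of all, including 6 of the 11 chains that fell and Col23a1. The promoters of all genes were not matched to the chains by gene type, base content or expression. These matches are descriptions of the letters and not sites of binding.

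The fibrillar class held the largest amounts. Of its 11 chains 7 were tested, 5 fell and none rose. Col3a1 (NCBI Gene 12825), the chain of type III collagen, measured 266, 281, 274 and 261 FPKM in the vehicle libraries and 209, 186, 197 and 187 in the DAPA libraries. The groups were far apart, the lowest vehicle library exceeding the highest DAPA library by more than the range of either group. Its mean fell by 28%, from 271 ± 8.77 to 195 ± 10.8 FPKM (SD, n = 4 each; log2 change -0.47, SE 0.039, limma adjusted p = 2.3e-06). Col1a2 (12843), the partner chain of type I collagen, stood at 176, 183, 180.3 and 171 FPKM with vehicle and at 154, 141, 145 and 143 with DAPA. The groups did not overlap, and the mean was 17.9% lower (log2 change -0.28, SE 0.035, limma adjusted p = 8e-05). For Col1a1 (12842), of which the type I trimer holds a pair, the libraries gave 115, 105, 118 and 100.5 FPKM with vehicle and 87.1, 82.1, 83.1 and 84.8 with DAPA. The DAPA libraries lay closer together than the vehicle libraries, and the mean was 23.1% lower (log2 change -0.37, SE 0.048, limma adjusted p = 0.00011).

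Of type V collagen, which starts fibrils and limits their width, Col5a1 and Col5a2 fell. Their means fell by less than those of Col3a1, Col1a2 and Col1a1, a difference that was not tested. Col5a2 measured 40.1, 39.9, 41.0 and 39.0 FPKM with vehicle and 36.4, 35.3, 35.1 and 34.2 with DAPA. The groups were separate and tight, with a mean 11.9% lower (log2 change -0.18, SE 0.033, limma adjusted p = 0.0022). Col5a1 stood at 23.9, 20.7, 23.1 and 20.4 FPKM with vehicle and at 18.9, 17.3, 18.7 and 18.9 with DAPA. Vehicle libraries 2 and 4 came closest to the DAPA group, and the mean was 16.2% lower (log2 change -0.24, SE 0.054, limma adjusted p = 0.0074). The third type V chain, Col5a3, did not pass the test, at 4.39 ± 0.673 against 4.63 ± 0.332 FPKM (limma adjusted p = 0.62). Col27a1, a fibrillar chain of cartilage, measured 2.95 ± 0.423 and 2.94 ± 0.274 (limma adjusted p = 0.99). The 4 remaining fibrillar chains stayed under the filter in both groups: Col2a1 and Col11a1, of cartilage, Col24a1, of bone, and Col11a2, whose values are given with the weak chains.

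Of the 6 basement membrane chains 5 were tested, 2 fell and none rose. Col4a1 and Col4a2, which form the widespread type IV trimer, fell. Col4a1 stood at 133, 122, 129 and 123 FPKM with vehicle and 116, 112, 113 and 116 with DAPA. The groups did not overlap, although the difference of 9.85% in the means was the smallest among the chains that fell (log2 change -0.15, SE 0.033, limma adjusted p = 0.0079). Col4a2 measured 101, 88.2, 100.5 and 91.9 FPKM with vehicle and 80.4, 79.9, 82.8 and 82.4 with DAPA. Its DAPA values were tightly grouped below the vehicle values, and the mean was 14.6% lower (log2 change -0.22, SE 0.043, limma adjusted p = 0.0026).

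The other type IV chains, which make up the trimers known from kidney glomeruli and other specialised membranes, were weak, and none passed the test. Col4a5 measured 8.85, 9.15, 10.2 and 9.81 FPKM with vehicle and 9.05, 9.44, 8.43 and 8.75 with DAPA. The groups overlapped (log2 change -0.08, SE 0.055, limma adjusted p = 0.34). Col4a4 stood at 2.81, 2.09, 2.64 and 2.27 with vehicle and at 3.16, 2.93, 2.85 and 2.77 with DAPA, and Col4a3 at 1.62, 1.65, 1.58 and 1.58 and at 2.04, 1.77, 1.72 and 1.93. The DAPA libraries of Col4a3 were all above the vehicle libraries, and those of Col4a4 overlapped with vehicle library 1 alone. Neither change passed the threshold, at log2 0.14 (limma adjusted p = 0.16) for Col4a3 and 0.19 (0.099) for Col4a4. Without vehicle library 1, the library that overlapped, the limma adjusted p of Col4a4 was 0.049. Without any other single library it was 0.097 to 0.23.

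Among the FACITs, which lie on the surface of fibrils, 6 of 9 were tested and 2 fell. Col14a1 measured 21.0, 21.5, 22.2 and 19.8 FPKM with vehicle and 17.9, 15.2, 16.9 and 15.5 with DAPA. The groups were separate, with a mean 22.4% lower (log2 change -0.35, SE 0.054, limma adjusted p = 0.00054). Col12a1, the close relative of Col14a1, stood at 6.48, 5.84, 5.69 and 5.43 FPKM with vehicle and at 5.28, 4.89, 4.57 and 5.03 with DAPA. Vehicle library 4 and DAPA library 1 nearly met, and the mean was 15.7% lower (log2 change -0.21, SE 0.061, limma adjusted p = 0.033). The call of Col12a1 ended when any of 6 libraries was left out. The adjusted p was 0.091 without vehicle library 1, 0.061 without vehicle 2, 0.053 without vehicle 3, 0.07 without DAPA 2, 0.095 without DAPA 3 and 0.06 without DAPA 4. Col16a1 was the only chain with a mean of 10 FPKM or more that did not pass. It measured 12.7, 12.0, 12.6 and 10.8 with vehicle and 11.6, 10.1, 10.7 and 12.2 with DAPA, with overlapping groups (log2 change -0.10, limma adjusted p = 0.31). Col9a2, Col20a1 and Col22a1, each at a group mean of 1.08 to 1.25 FPKM, gave adjusted p-values of 0.55 to 0.97, and Col9a1, Col9a3 and Col19a1 stayed under the filter.

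Both tested chains of the network-forming class, the type VIII chains of vessel walls and endothelium, were lower. Col8a1 measured 50.6, 51.5, 56.2 and 52.9 FPKM with vehicle and 48.1, 42.7, 42.6 and 44.8 with DAPA. DAPA library 1 stood nearest to the vehicle group, without overlap, and the mean was 15.6% lower (log2 change -0.24, SE 0.045, limma adjusted p = 0.0024). Col8a2 stood at 10.5, 11.2, 10.9 and 10.6 with vehicle and at 10.3, 8.86, 9.59 and 8.43 with DAPA. The same DAPA library almost reached the vehicle group, and the mean was 13.7% lower (log2 change -0.20, SE 0.058, limma adjusted p = 0.032). Leaving out 1 library ended this call in 5 cases, with an adjusted p of 0.074 without vehicle library 2, 0.07 without vehicle 3, 0.053 without vehicle 4, 0.081 without DAPA 2 and 0.093 without DAPA 4. The third chain, Col10a1 of hypertrophic cartilage, had 1 read in all vehicle libraries together and 5 in the DAPA libraries.

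The 3 classical type VI chains, which assemble together into beaded microfibrils, fell together. Col6a1 measured 71.5, 67.7, 71.9 and 68.8 FPKM with vehicle and 56.8, 54.7, 53.3 and 56.3 with DAPA. The gap between the groups was wider than the range within either, and the mean was 21% lower (log2 change -0.33, SE 0.034, limma adjusted p = 1.4e-05). Col6a2 stood at 48.5, 44.7, 46.5 and 44.0 FPKM with vehicle and at 40.5, 37.8, 37.3 and 36.0 with DAPA, a mean 17.5% lower (log2 change -0.27, SE 0.043, limma adjusted p = 0.00065). Col6a3 measured 8.48, 7.90, 7.90 and 8.54 FPKM with vehicle and 6.28, 6.10, 5.67 and 6.49 with DAPA, a mean 25.2% lower (log2 change -0.37, SE 0.053, limma adjusted p = 0.00031). No library of either chain crossed into the other group. Col6a5 and Col6a6 stayed under the filter, and Col6a4 had no reads.

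The multiplexins, collagens of the basement membrane zone, parted. Col15a1, expressed around capillaries and muscle, measured 45.6, 44.2, 45.1 and 44.6 FPKM with vehicle and 34.7, 34.2, 33.9 and 35.7 with DAPA. These were the tightest vehicle values of any chain that fell, and the mean was 22.8% lower (log2 change -0.36, SE 0.032, limma adjusted p = 3.9e-06). Col18a1, the precursor of endostatin, stood at 6.56, 6.41, 7.26 and 6.97 with vehicle and at 7.99, 6.87, 6.98 and 7.18 with DAPA. Its groups overlapped, and the change was 0.08 on the log2 scale (95% interval -0.05 to 0.21, limma adjusted p = 0.38).

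The chains that rose were a transmembrane collagen and a short collagen outside the main classes. Col28a1, known in mouse from peripheral nerve, measured 0.843, 0.622, 0.595 and 0.846 FPKM with vehicle and 1.42, 1.35, 1.49 and 1.47 with DAPA. Every DAPA library stood well above every vehicle library, and the ratio of the means was 1.97 (log2 change of FPKM + 1 0.50, SE 0.074, limma adjusted p = 0.00041). Behind these values were 418 reads in the vehicle and 822 in the DAPA libraries. Col23a1, a membrane-anchored chain that can be shed, stood at 0.623, 0.599, 0.422 and 0.431 with vehicle and at 1.16, 0.917, 0.914 and 1.02 with DAPA. Again no library crossed between groups, and the ratio of the means was 1.93 (log2 change of FPKM + 1 0.40, SE 0.078, limma adjusted p = 0.0031). Its DAPA mean of 1.0 FPKM lay at the filter, and without DAPA library 1 or 4 it was not tested. Schwann cell markers moved with Col28a1: 4 of 4 tested were higher of 6 listed, with sums of 3.01 to 5.08 FPKM with vehicle and 7.25 to 7.77 with DAPA. The part of such cells in the rise of Col28a1 was not tested.

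**Figure D2:**
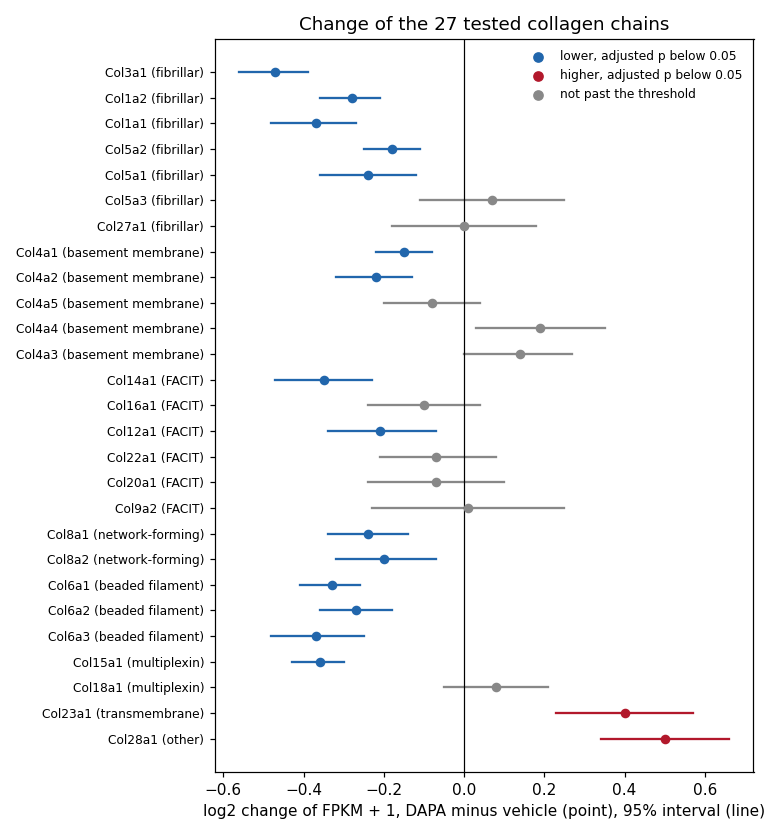
Log2 change of FPKM + 1 (DAPA minus vehicle) of the 27 tested chains with its 95% interval, ordered by class. Blue points are the 15 chains lower at an adjusted p below 0.05, red points the 2 that were higher and grey points the 10 that did not pass; Col3a1 lies at -0.47 and Col28a1 at 0.50.

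Weakly expressed chains were examined further on the whole reads that the FPKM values stand for, with limma voom on the 15709 genes of at least 10 reads, a choice made after the data were seen. With log2(FPKM + 0.1) and a minimum mean of 0.1 FPKM, limma tested 37 chains and called 16 lower and 2 higher, beside 7.02% and 8.04% of all genes. By voom, of 42 chains, 16 (38.1%) were lower, 5 (11.9%) higher and 21 not called, where 7.86% of all genes were lower and 9.58% higher (17.4% in either direction). The share of chains that rose was thus near that of all genes. On this scale the changes of Col28a1 and Col23a1 were 0.99 (voom adjusted p = 3.8e-06) and 0.96 (0.00011), larger than on log2(FPKM + 1), which understates the change of low genes.

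Of the chains below the filter, Col6a5 was called lower. It measured 0.315, 0.401, 0.358 and 0.212 FPKM with vehicle and 0.166, 0.126, 0.191 and 0.117 with DAPA, without overlap, from 318 and 148 reads. Its change was -1.08 (95% interval -1.66 to -0.50, voom adjusted p = 0.0048), larger in size than that of Col6a1 to Col6a3 but with a wide interval. The 3 chains called higher beside Col23a1 and Col28a1 were Col4a4 (0.27, voom adjusted p = 0.0072), Col4a6 and Col11a2. On log2(FPKM + 0.1) none of these 3 was called, with limma adjusted p-values of 0.12, 0.061 and 0.077, whereas Col6a5 was (0.044). Col4a6, which pairs with Col4a5 in some basement membranes, stood at 0.562, 0.623, 0.846 and 0.555 FPKM with vehicle and at 0.883, 0.948, 0.924 and 0.874 with DAPA. Vehicle library 3 came near the DAPA group without reaching it, and the change was 0.51 (95% interval 0.18 to 0.85, voom adjusted p = 0.023). Col11a2, of cartilage fibrils, measured 0.64, 0.38, 0.553 and 0.455 with vehicle and 0.732, 0.867, 0.666 and 0.699 with DAPA, and vehicle library 1 lay just below the lowest DAPA library (0.57, 95% interval 0.21 to 0.93, voom adjusted p = 0.018). These 4 chains were singled out with their values known.

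The authors' deposited table gave the same direction for each of these chains. It rests on the same 8 libraries and is no independent support. In the authors' deposited table the ratio of DAPA over vehicle was 0.462 for Col6a5 (q = 0.00042), 1.19 for Col4a4 (q = 0.029), 1.39 for Col4a6 (q = 0.026) and 1.45 for Col11a2 (q = 0.021). Of 42 chains with a q-value in the authors' deposited table, 16 were lower and 5 higher at q below 0.05.

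Col13a1, a transmembrane chain of the neuromuscular junction, had a mean of 0.418 ± 0.0911 FPKM with vehicle and 0.586 ± 0.0705 with DAPA without overlap, and did not pass (0.50, voom adjusted p = 0.12). Col7a1, the chain of anchoring fibrils below epithelia, stood at 0.289 ± 0.0602 and 0.193 ± 0.104 with overlap (-0.70, voom adjusted p = 0.098). The other untested chains, Col2a1, Col6a6, Col9a1, Col9a3, Col11a1, Col17a1, Col19a1, Col24a1, Col25a1 and Col26a1, gave voom adjusted p-values of 0.44 to 0.93. Col11a1, the deepest of them with 786 reads, had a 95% interval of -0.51 to 0.32. The others had at most 249 reads and wider intervals. Among the 27 tested chains, the groups did not overlap in 15 chains lower and 3 higher with DAPA, where among all tested genes 22.1% did not overlap, 9.99% lower and 12.1% higher. Over all 44 chains the counts were 16 lower and 6 higher.

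Ordered by mean FPKM over the 8 libraries, the 12 most abundant chains were all lower. Of the 14 chains at 10 FPKM or more, 13 were lower and none higher. Of the 12 chains between 1 and 10 FPKM, 2 were lower and 1 higher. Below 1 FPKM the filter kept out every chain but Col23a1, which entered through its DAPA mean, so the test on FPKM could hardly make calls there. By the test on reads, 13 chains of 10 FPKM or more were lower and 0 higher, 2 and 2 of those between 1 and 10 FPKM, and 1 and 3 of the 11 between 0.1 and 1 FPKM. The 7 chains below 0.1 FPKM held no call on reads. Fewer reads also widen the intervals, so the absence of calls among weak chains sets no limit on small changes.

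**Figure D3:**
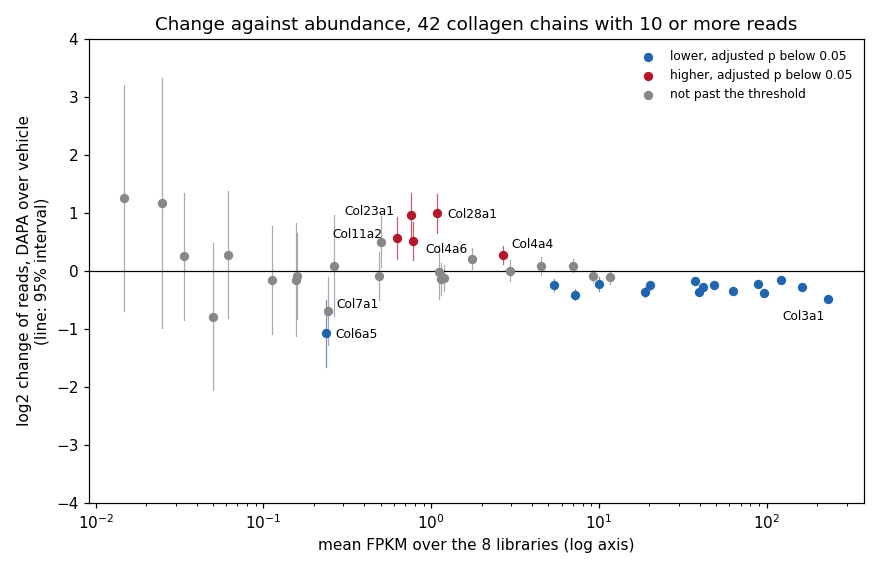
Log2 change of reads (DAPA over vehicle, limma voom, with 95% intervals) against mean FPKM over the 8 libraries (log axis) for the 42 chains with at least 10 reads. Blue points (16) were lower, red points (5) higher and grey points (21) not called; chains of 10 FPKM or more lie at or below 0, and the red points lie below 10 FPKM.

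Summed over the 44 chains, collagen FPKM came to 1167, 1139, 1182 and 1109 in the vehicle libraries and 974, 906, 926 and 925 in the DAPA libraries. The sum was 18.9% lower with DAPA, at 933 ± 28.7 against 1149 ± 32.4, with no overlap between groups. Collagen reads made up 0.675 ± 0.0199% of all reads with vehicle and 0.551 ± 0.0166% with DAPA. The fibrillar sum was 628 ± 19.7 FPKM with vehicle and 487 ± 19.5 with DAPA, 22.4% lower, and the basement membrane sum 236 ± 11.8 and 210.3 ± 2.36, 11% lower. Fibrillar chains thus made up 54.1% to 55.9% of collagen FPKM with vehicle and 51.6% to 52.9% with DAPA, and basement membrane chains 19.6% to 21.2% and 21.8% to 23%. Col3a1 alone contributed 23.6% and 20.9%. The beaded filament sum was 125 FPKM with vehicle and 99.6 with DAPA. The multiplexin sum was 18.9% lower, the FACIT sum 15.6% and the network-forming sum 15.3%. These sums are descriptions and were given no test.

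**Figure D4:**
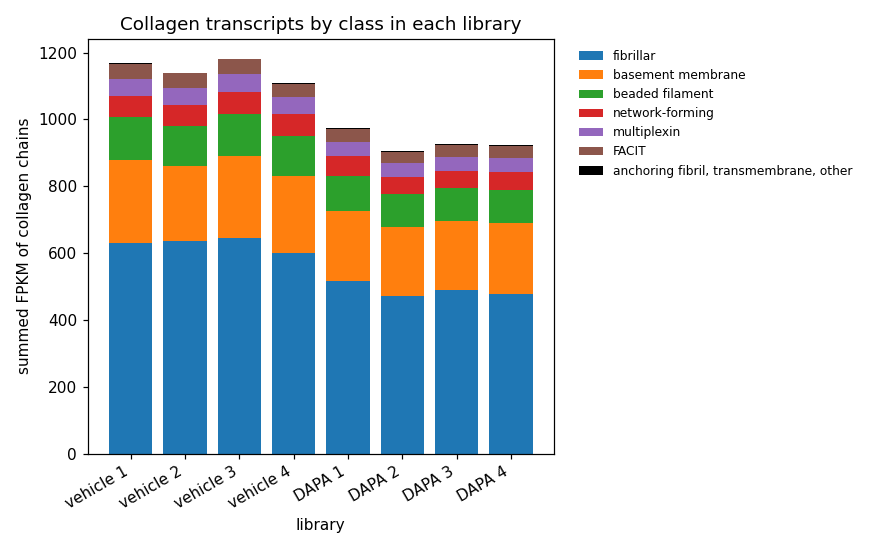
Summed FPKM of the collagen chains in each of the 8 libraries, stacked by class. The total lies between 1109 and 1182 in the vehicle bars and between 906 and 974 in the DAPA bars, with fibrillar chains (bottom) at 51.6% or more of each.

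Chains that share a trimer or a fibril had ratios that overlapped between the groups. The ratio of Col1a1 to Col1a2 was 0.618 ± 0.0446 with vehicle and 0.579 ± 0.0127 with DAPA, a log2 difference of -0.09 (exact permutation p = 0.2, 0.343 adjusted over the 6 ratios). For Col4a1 to Col4a2 it was 1.33 ± 0.0411 and 1.4 ± 0.036, a difference of 0.08 (exact permutation p = 0.0571, adjusted 0.343). Col3a1 to Col1a1 stood at 2.48 ± 0.194 and 2.31 ± 0.0914, Col5a1 to Col5a2 at 0.55 ± 0.0365 and 0.524 ± 0.0259, Col6a1 to Col6a2 at 1.52 ± 0.039 and 1.46 ± 0.0718, and Col8a1 to Col8a2 at 4.9 ± 0.228 and 4.81 ± 0.37. None of the 6 passed the threshold in two-sided exact permutation tests over 70 assignments, whose smallest possible p is 0.0286. Log2 differences ran from -0.10 to 0.08. A p above the threshold does not show that the ratios were equal.

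Several chains are neighbours in the genome, and neighbours did not always change alike. In the RefSeq order of protein-coding genes, 8 pairs of chains lie side by side. Col3a1 and Col5a2 (chromosome 1), Col6a1 and Col6a2 (chromosome 10) and Col4a1 and Col4a2 (chromosome 8) were lower in both members of each pair. In contrast, Col4a6 was 0.51 higher by voom while its neighbour Col4a5 on the X chromosome changed by -0.09 (voom adjusted p = 0.26). Col6a5 lay beside Col6a6, which changed by -0.09 (voom adjusted p = 0.91). Col4a3 and Col4a4 on chromosome 1 gave 0.21 (voom adjusted p = 0.1) and 0.27.

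Genes that make, process, bind and break down collagen changed in both directions. Of 66 such genes 54 were tested, 11 were lower, 5 higher and 38 not called, with a median log2 change of -0.03 (0.0085 over all genes). Set against 8.75% lower and 9.62% higher among all genes, the share of these genes that was higher was near that of any genes. Among the 19 genes of chain modification and folding, 2 rose and 2 fell. P4ha1, a catalytic subunit of prolyl 4-hydroxylase, rose from 24.2 ± 0.711 to 29.4 ± 0.87 FPKM (log2 change 0.27, limma adjusted p = 0.00022). Serpinh1, the collagen chaperone HSP47, rose from 187 ± 1.85 to 211 ± 2.73 (0.18, limma adjusted p = 0.00026). Both changed in the direction opposite to the chains that fell. Fkbp10, a chaperone of procollagen, fell from 22.9 ± 0.981 to 19.4 ± 1.06 (-0.23, limma adjusted p = 0.0041). Plod1, a lysyl hydroxylase, fell from 51.3 ± 2.19 to 47.2 ± 0.765 (-0.12, limma adjusted p = 0.038). That call ended without any 1 library other than vehicle 2, with an adjusted p of 0.053 (without DAPA 4) to 0.098 (without vehicle 1). Ppib, a prolyl isomerase of the same machinery, did not pass (-0.10, limma adjusted p = 0.051).

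In secretion, 1 of 7 genes was called. Creb3l1, a transcription factor that drives collagen secretion genes, rose from 3.54 ± 0.0615 to 5.81 ± 0.389 FPKM (0.58, limma adjusted p = 8.8e-06). Of 5 tested genes of propeptide cleavage, Pcolce, the enhancer of procollagen C-proteinase, fell from 135 ± 3.89 to 115 ± 6.22 (-0.22, limma adjusted p = 0.0014). Bmp1, the proteinase it enhances, gave -0.08 (limma adjusted p = 0.16). In crosslinking 2 of 4 tested genes fell, both lysyl oxidase-like enzymes. Loxl2 went from 13.6 ± 0.521 to 10.1 ± 0.609 (-0.39, limma adjusted p = 0.00011) and Loxl3 from 18.4 ± 0.941 to 16 ± 0.484 (-0.19, limma adjusted p = 0.01). Lox itself did not pass, at 22.2 ± 1.29 and 19.6 ± 1.66 (-0.17, limma adjusted p = 0.063).

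Among 12 tested genes of collagen breakdown and uptake, 6 fell and 1 rose, and those that fell included inhibitors as well as proteases. Timp4, a tissue inhibitor of metalloproteinases, fell from 31.5 ± 0.975 to 20.2 ± 0.493 FPKM (-0.62, limma adjusted p = 1.1e-07). Its relative Timp1 fell from 50.2 ± 4.6 to 35.4 ± 3.54 (-0.49, limma adjusted p = 0.00028). Mmp2, a gelatinase, fell from 119.6 ± 3.11 to 105 ± 5.26 (-0.19, limma adjusted p = 0.0033), while the membrane-bound Mmp15 rose from 16.5 ± 1.01 to 22.4 ± 1.21 (0.42, limma adjusted p = 8.1e-05). The remaining falls were those of Mmp3, Timp3 and Mrc2, the last an uptake receptor for collagen fragments. Mmp9 stayed under the filter, at 0.536 ± 0.268 FPKM with vehicle and 0.0999 ± 0.0528 with DAPA, from 215 and 40 reads. By voom it was lower (-2.40, voom adjusted p = 0.00025), a gene singled out with its values known. Mmp8, Mmp13 and Mmp16, also under the filter, were not called by voom. Of 7 tested collagen receptors, Itga1, the alpha chain of an integrin that binds collagen, rose from 7.24 ± 0.453 to 8.33 ± 0.293 (0.18, limma adjusted p = 0.031). This call ended without any 1 of 6 libraries, at an adjusted p of 0.053 without vehicle 1, 0.078 without vehicle 2, 0.077 without vehicle 4, 0.069 without DAPA 1, 0.073 without DAPA 3 and 0.082 without DAPA 4.

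**Figure D5:**
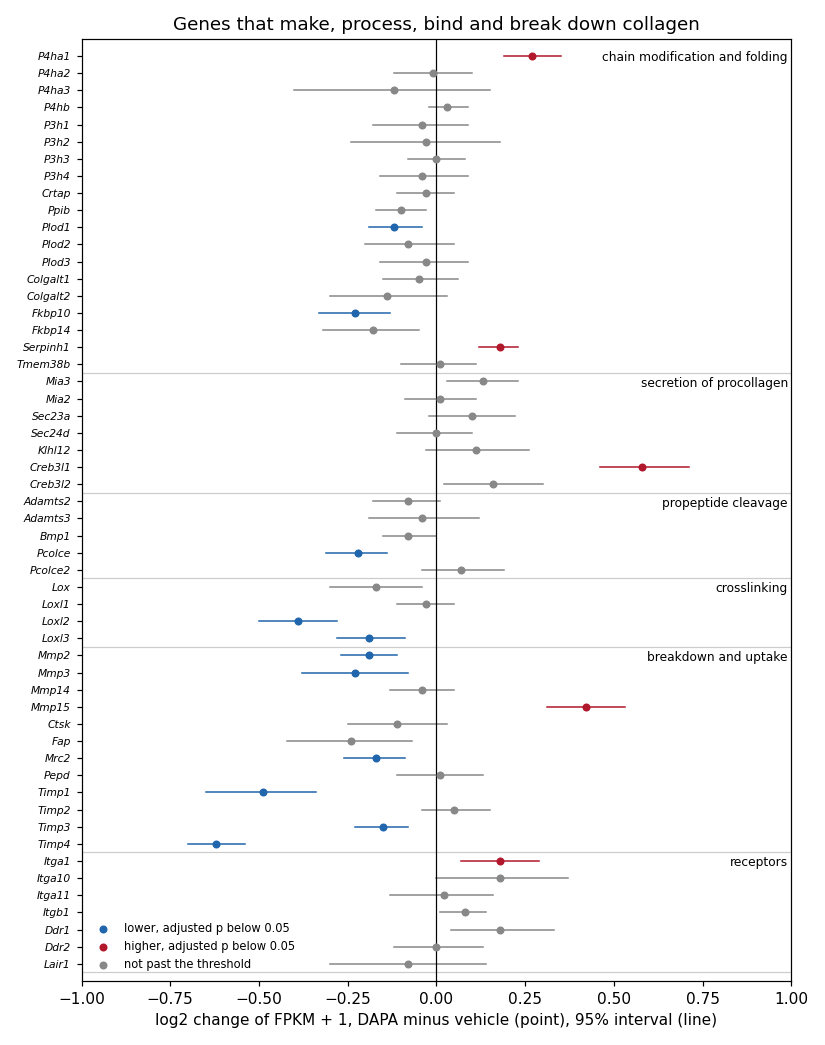
Log2 change of FPKM + 1 (DAPA minus vehicle) with its 95% interval for the 54 tested genes of collagen modification, secretion, cleavage, crosslinking, breakdown and binding. Blue points (11) were lower and red points (5) higher at an adjusted p below 0.05; Timp4 lies furthest down at -0.62 and Creb3l1 furthest up at 0.58.

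The remaining marker values are set beside these results. Pdgfra, a receptor that marks fibroblasts, stood at 9.61 ± 0.663 and 9.91 ± 0.473 (limma adjusted p = 0.66). Endothelial markers, 5 of 6 higher, summed to 336 to 357 with vehicle and 409.8 to 426 with DAPA, opposite in direction to Col4a1, Col4a2, Col8a1 and Col15a1. Markers of pericytes and smooth muscle, 1 lower and 1 higher of 6, summed to 342 to 376 and 362 to 374. Ventricular cardiomyocyte markers, 1 lower and 1 higher of 6, summed to 23125 to 23666 with vehicle and 21988 to 23611 with DAPA. Leukocyte markers, 1 higher of 5 tested, summed to 34.8 to 38.2 with vehicle and 33.1 to 37.8 with DAPA. Epicardial and mesothelial markers, 3 of 6 higher, summed to 15.2 to 29.7 with vehicle and 31.6 to 43.6 with DAPA, without overlap. No listed marker was at 0 in all libraries. The part of cell composition in the collagen changes was not tested.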

How the data were processed

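Per the labels' protocols, TRIzol extracts went into TruSeq stranded mRNA libraries, sequenced as paired reads on an Illumina HiSeq instrument and cleaned with Trimmomatic. The submitters' processing notes list HISAT2, SAMtools, StringTie, Cufflinks, HTSeq and DESeq without versions or roles, and the build GRCh38, a human assembly, although the genes are those of mouse. Alignment coordinates are therefore not given. The role of strand in counting is not stated there, which leaves overlapping genes uncertain.

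The deposited values are FPKM, computed by the authors for each library. The authors' deposited table also holds their ratio of DAPA over vehicle and their q-value, quoted only where named. That the unit is FPKM was checked on the values: they are whole multiples of a fixed step per gene, which gave back the reads behind 17356 genes, within 0.0001 reads or, for 1400 genes with large counts, 0.01. The step of 248 genes was divided further, so that the transcript length came out whole. The genes of the table held at least 99.91% of the total by which the authors divided.

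All genes with a mean of 1 FPKM or more in a group (11496) were fitted with limma 3.58.1 in R 4.3.3, as limma-trend on log2(FPKM + 1) with group as the only term, 4 libraries against 4, with Benjamini-Hochberg adjustment over all genes and a threshold of 0.05. The fit was tested on simulated data, a check that required recovery only of changes larger than those of the chains that fell. Ratios of chains used exact permutation. Alternatives were another pseudocount (0.1), other filters, median centring, voom on reads, a replicate block and leaving out each library. Values by library are given for chains that passed and for the 3 most abundant tested chains of each class, and up to 4 called genes with the smallest p for each list. Those of chains under the filter that voom called, of Mmp9, and of genes quoted as not passing were added after values were seen. The value of 1 marker gene is not reported here. The chains, classes and lists were chosen with earlier results of these data known.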

Additional observations from a re-analysis of the deposited data

Results flagged for a closer look

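Among 124 groups of 4 libraries examined, 7 held 1 library whose distance from the nearest other was above Dixon's 95% critical value for 4 samples, where chance gives about 1 in 20. For Col24a1, vehicle library 1 stood at 0.0906 FPKM with the others at 0.042 to 0.0497, and DAPA library 4 at 0.111 with the others at 0.0155 to 0.0245. For Col26a1, vehicle library 2 stood at 0.118 below 0.172 to 0.18. Col9a1 reached 0.0539 in vehicle library 4 with the others at 0 to 0.00883, and Col10a1 0.0119 in vehicle library 2 with the others at 0. These 5 values rest on few reads each. Of the chains that fell, Col5a1 had DAPA library 2 at 17.3 FPKM below 18.7 to 18.9, further from the vehicle group than the rest. Fkbp10, a chaperone gene, had DAPA library 1 at 20.9 above 18.7 to 19.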

How the results depend on the processing

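The number of chains lower with DAPA was 15 and lay between 13 and 16 under every alternative tried, 13 to 15 when 1 library was left out. The number higher was 2. It was 1 with median centring, where Col23a1 fell just under the filter. Without a filter on low values it was 3, with Col4a6 added, and with voom at the main filter 3, with Col4a4 added. It was 5 with voom on genes of 10 or more reads (added after the data were seen), and 1 to 3 when 1 library was left out. It was 1 without DAPA library 1 or 4, where Col23a1 was not tested, and 3 without vehicle library 1, where Col4a4 passed. Of the 17 called chains, Col12a1 and Col8a2 each lost their call in 7 of 15 alternatives (highest adjusted p 0.095 and 0.093), without a filter among them (0.063 and 0.064), and the others were called wherever tested. Pathway genes lower numbered 11 (9 to 12 when 1 library was left out) and higher 5 (4 to 6). With median centring 14 were lower and 5 higher, and with voom at the main filter 14 and 7. By voom on genes of 10 or more reads 13 were lower and 8 higher. No called chain changed sign. Among values not called, Col9a2, Col27a1 and the ratio of Col8a1 to Col8a2 did, from log2 values of 0.03 or less in size with all libraries.

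The replicate numbers did not pair the libraries: same-numbered deviations correlated at -0.0551 to 0.0138, and no library matched its own number best. With a replicate block, 14 chains were lower and 2 higher, with Col8a2 lost (adjusted p = 0.054). Plod1 was lost too (0.06). Sign-flip tests of the 6 ratios gave exact permutation p-values of 0.125 to 0.875, where 0.125 is the smallest possible. Weak chains are limited by depth, with 1 read worth 0.0373 to 0.04 FPKM per kilobase.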
